A study of Mus musculus with 4 samples.

Results

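The 10 genes described here mark activated fibroblasts and the mural cells of blood vessels, and they were followed in the RNA of MC38 tumours from vanoxerine-treated and saline-treated mice. They are Pdgfra, Pdgfrb, Thy1, Fap, Acta2, Tagln, Rgs5, Cspg4, Des and Myh11, 10 of the 54115 genes whose transcripts were quantified. They were chosen by name, with earlier results of these data known. MC38 is a mouse colon adenocarcinoma cell line that was injected into mice, so each tumour held the grafted cells of that line together with cells of the host. The vanoxerine group was given vanoxerine, an inhibitor of dopamine reuptake, intraperitoneally at 25 mg/kg once a day for 10 injections, and the saline group was given saline on the same schedule. Each group had 2 RNA-seq libraries, made from total RNA of snap-frozen tumours. The sources used here give neither the age, sex and strain of the mice nor the site of injection. Nothing in the labels ties the 2 libraries of a group to different mice, and the p-values therefore measure a spread between libraries that could be technical.

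Platelet-derived growth factor (PDGF) ligands are released by endothelial cells, platelets, macrophages and tumour cells, and they act on fibroblasts and mural cells through the receptors PDGFRα and PDGFRβ. Pericytes wrap capillaries and smooth muscle cells wrap larger vessels, and both depend on endothelial PDGF-B acting on PDGFRβ for their recruitment. Fibroblasts of a tumour can take on an activated, contractile state in which smooth muscle actin, the product of Acta2, is made. Serum response factor (SRF) with its coactivators of the myocardin family binds CArG boxes in the promoters of many contractile genes, Acta2 among them.

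The promoters of 3 genes that were lower in vanoxerine tumours are shown because they hold the motifs searched for. They are RefSeq sequences of build GRCm38.p6, from 250 bases before to 50 bases after the annotated start, and 5 of the 10 genes had such an entry. The windows are chr19:34255324-34255623 on the reverse strand for Acta2, chr1:75360042-75360341 on the forward strand for Des, and chr1:169655251-169655550 on the forward strand for Rgs5. Capitals mark CArG boxes, with up to 1 G or C allowed in the A/T core, and the E-box CAGCTG, a motif added after the sequences had been read. Both motifs read the same on either strand, and no match overlapped another.
Acta2: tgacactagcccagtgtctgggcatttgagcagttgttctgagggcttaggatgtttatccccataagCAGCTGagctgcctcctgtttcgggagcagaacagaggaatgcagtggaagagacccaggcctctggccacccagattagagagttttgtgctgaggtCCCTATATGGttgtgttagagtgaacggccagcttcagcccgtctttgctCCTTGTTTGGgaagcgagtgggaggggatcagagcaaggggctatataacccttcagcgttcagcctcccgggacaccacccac
Des: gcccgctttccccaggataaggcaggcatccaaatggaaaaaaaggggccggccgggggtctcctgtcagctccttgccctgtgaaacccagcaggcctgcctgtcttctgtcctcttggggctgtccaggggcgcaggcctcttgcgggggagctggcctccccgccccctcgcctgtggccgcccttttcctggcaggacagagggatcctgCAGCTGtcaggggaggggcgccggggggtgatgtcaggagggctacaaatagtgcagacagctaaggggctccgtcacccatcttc
Rgs5: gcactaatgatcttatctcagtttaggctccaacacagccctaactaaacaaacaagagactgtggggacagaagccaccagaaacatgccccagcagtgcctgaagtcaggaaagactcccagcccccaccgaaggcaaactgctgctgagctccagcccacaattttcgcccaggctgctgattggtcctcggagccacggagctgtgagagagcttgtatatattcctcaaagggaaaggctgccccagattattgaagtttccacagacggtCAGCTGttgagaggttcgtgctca

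The Acta2 promoter held 2 CArG boxes, CCCTATATGG starting 84 bases before the start and CCTTGTTTGG starting 34 bases before it, each with 1 departure in the core. Of 32851 mouse promoters of the same length, 9.98% held at least 1 such match and 0.822% held 2 or more. A CArG box with no departure was in 1.63% of promoters and in none of the 5 searched here. CAGCTG was found 182 bases before the start of Acta2, 36 bases before that of Des and shortly after that of Rgs5, and it was in 16.3% of all promoters. The promoters of Pdgfra and Cspg4, the other 2 genes searched, held neither motif. A match of letters is a description of the window and not a measured site of binding.

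Acta2 belongs to a family of closely similar genes, and the start of its coding sequence is shown beside that of Acta1, the skeletal muscle actin gene, because closely similar genes can share reads in the quantification. The sequences are the first 60 bases of the longest open reading frame of the transcripts Acta2-201 and Acta1-201 (GRCm38), and capitals in Acta1 mark the 17 bases that differ from Acta2.
Acta2 coding start: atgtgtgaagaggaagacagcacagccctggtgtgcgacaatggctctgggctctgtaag
Acta1 coding start: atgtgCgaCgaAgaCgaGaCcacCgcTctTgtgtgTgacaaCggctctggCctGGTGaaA

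Over the whole coding sequence Acta1 was 85.4% identical to Acta2, and Actg2, the enteric smooth muscle actin gene, was 84.2% identical. The longest run of identical bases was 29 for each of these pairs. For the cytoplasmic actin genes Actb and Actg1, which are far more abundant, identity was 82.8% and 81.5% and the longest identical run was 47 and 56 bases. Of the runs of 31 bases along Acta2-201, 1.5% also occurred in a transcript of another gene.

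The libraries held 70564325 and 67289273 estimated reads in vanoxerine and 75748162 and 70274527 in saline. Levels are given as CPM, read counts divided by sequencing depth after TMM scaling (a correction for library composition), and fold changes as log2 of vanoxerine over saline with a standard error (SE). Genes were called at an adjusted p under 0.05 by edgeR's quasi-likelihood test with Benjamini-Hochberg adjustment over all 18758 genes tested. Of all genes tested, 36.9% were called, 21.0% higher and 15.9% lower in vanoxerine, and the groups did not overlap for 70.7%. Of the 10 genes, all were tested and 6 were called. Called lower were Pdgfra, Pdgfrb, Acta2, Rgs5 and Des, 5 of 10 against the 15.9% lower over all genes, and called higher was Thy1, 1 of 10. Because the 10 genes were chosen with earlier results known, these counts only describe them. The median log2 fold change was -0.78 over the 10 genes and -0.01 over all genes tested. In bulk tumour RNA, fewer cells of a type and less RNA per cell cannot be told apart.

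**Figure D1:**
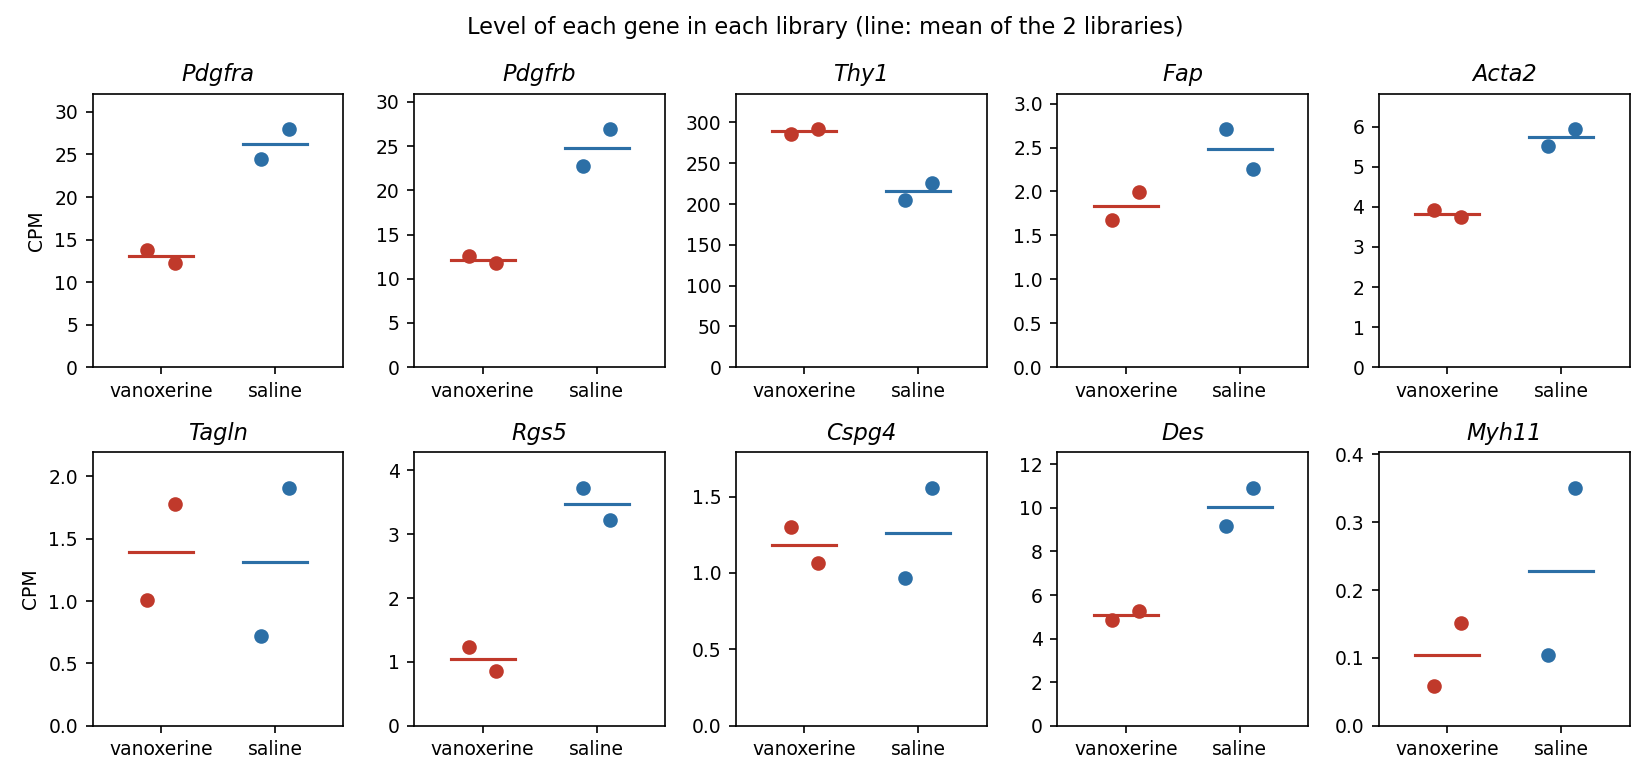
CPM of each of the 10 genes in each library, with vanoxerine on the left and saline on the right of each panel, a point for each library and a line at the mean of the 2 libraries of a group; each axis starts at 0. Both vanoxerine points lie below both saline points for Pdgfra, Pdgfrb, Fap, Acta2, Rgs5 and Des and above them for Thy1, while the groups overlap for Tagln, Cspg4 and Myh11.

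Both PDGF receptor genes were about equally lower in vanoxerine tumours. Pdgfrb (chromosome 18, 61045150 to 61085061, forward strand, GRCm38), the receptor gene of pericytes, smooth muscle cells and fibroblasts, had 12.5 and 11.8 CPM in vanoxerine, against 22.7 and 26.9 CPM in saline. Both vanoxerine libraries were below both saline libraries, and the fold change was 2.04-fold lower, a log2 fold change of -1.03 ± 0.11 (SE, edgeR adjusted p = 0.00111, n = 2 per group). Pdgfra (chromosome 5, 75152292 to 75198215, forward strand), the receptor gene used as a fibroblast marker, had 13.8 and 12.3 CPM in vanoxerine, against 24.4 and 28.0 CPM in saline. The groups again did not overlap, and the log2 fold change was -1.0 ± 0.11 (SE, edgeR adjusted p = 0.00112). The annotation gives Pdgfra 9 transcripts and Pdgfrb 2, and the transcript Pdgfrb-201 held all Pdgfrb reads in all 4 libraries. Pdgfra reads were divided among several transcripts, and the call of Pdgfra was lost with an offset for average transcript length (log2 fold change -0.87, edgeR adjusted p = 0.0639) and on the log2(TPM + 1) scale (-0.47, limma adjusted p = 0.182). The short transcript Pdgfra-206, of 442 bases, held 0% and 30.0% of the gene's TPM in the vanoxerine libraries and 0% and 9.55% in the saline libraries.

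Pdgfra was also the gene whose pattern over the 4 libraries was nearest to that of Pdgfrb, the gene of the 10 with the smallest p. Among 9902 genes whose mean log2 CPM was 3 or more, the root mean square difference of centred log2 CPM from Pdgfrb was 0.033 for Pdgfra. The next were Rep15 with 0.041, Asap3 with 0.044, Rpl13a with 0.045 and Clu with 0.049, whose log2 fold changes were -1.11, -1.07, -1.01 and -1.0. These distances describe likeness over 4 libraries.

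Of the 4 genes for PDGF ligands, 2 rose, 1 fell and 1 was not called, beside 21.0% higher and 15.9% lower over all genes tested. Pdgfb, whose product binds both receptors, had 22.7 and 23.0 CPM in vanoxerine, against 9.03 and 11.3 CPM in saline. It was higher in both vanoxerine libraries than in either saline library, with a log2 fold change of 1.17 ± 0.13 (SE, edgeR adjusted p = 0.00113). Pdgfc, whose product acts on PDGFRα, had 21.3 and 20.1 CPM in vanoxerine, against 14.4 and 14.9 CPM in saline, a log2 fold change of 0.50 ± 0.09 (SE, edgeR adjusted p = 0.00649). Pdgfd, whose product acts on PDGFRβ, was the ligand gene that fell, with 0.0722 and 0.228 CPM in vanoxerine and 1.44 and 0.772 CPM in saline. Those levels came from 5 and 15 reads in vanoxerine and 110 and 55 reads in saline, and the log2 fold change was -2.87 ± 0.72 (SE, edgeR adjusted p = 0.0245). Pdgfa, a ligand gene of PDGFRα, stood at 32.5 and 33.0 CPM in vanoxerine and 35.1 and 36.1 CPM in saline, a log2 fold change of -0.12 ± 0.06 (SE) that was not called. Without vanoxerine replicate 1 the adjusted p was 0.117 for Pdgfd and 0.0875 for Pdgfc, and without vanoxerine replicate 2 it was 0.0540 for Pdgfc.

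The 2 surface genes of activated fibroblasts differed from each other. Thy1 (chromosome 9, 44043384 to 44048579, forward strand) encodes a GPI-anchored protein of fibroblasts and of T cells, and it had 286 and 292 CPM in vanoxerine, against 205 and 226 CPM in saline. It was the only one of the 10 genes called higher, in both vanoxerine libraries over both saline libraries, by 1.34-fold (log2 fold change 0.42 ± 0.059 SE, edgeR adjusted p = 0.00285). By mean TPM over the 4 libraries it stood above 97.7% of the genes tested, and it averaged 375 ± 6.30 TPM in vanoxerine and 247 ± 13.1 TPM in saline (SD, n = 2 each). Because T cells also make Thy1, the 10 T cell markers were read beside it. Their summed level was 412 and 397 CPM in vanoxerine and 406 and 415 CPM in saline, so the groups overlapped. Of these markers 1 rose, Cd28 with a log2 fold change of 0.69 ± 0.08 (SE, edgeR adjusted p = 0.00148), and 1 fell, Cd3g with -0.31 ± 0.07 (SE, edgeR adjusted p = 0.0141), while 8 were not called. Over all genes tested, 21.0% were called higher and 15.9% lower. The call of Cd3g was lost without vanoxerine replicate 1 (edgeR adjusted p = 0.0536) or 2 (0.193), and with upper-quartile scaling 4 of the T cell markers fell and 1 rose. The share of Thy1 reads that came from T cells or from other cells was not tested.

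Fap (chromosome 2, 62500943 to 62574075, reverse strand), the gene of a serine protease of activated fibroblasts, had 1.68 and 1.99 CPM in vanoxerine, against 2.71 and 2.26 CPM in saline. The groups did not overlap, as for 70.7% of genes tested, and the log2 fold change of -0.44 ± 0.26 (SE) was not called (edgeR adjusted p = 0.244). The reads assigned to its protein-coding transcripts were 96.8 and 71.3 in vanoxerine and 161 and 74.1 in saline. They made up 83.4% and 54.5% of Fap reads in vanoxerine and 77.8% and 46.0% in saline, so the division among transcripts differed as much within a group as between groups. On the log2(TPM + 1) scale the value was 0.03 (limma adjusted p = 0.953).

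Among the cytoskeletal genes of mural cells and myofibroblasts, Des and Acta2 were called lower, and Tagln and Myh11 were not called. The low count of Myh11 and the uncertain level of Tagln, given below, mean that this does not show a different behaviour. Des (chromosome 1, 75360329 to 75368579, forward strand), the gene of the intermediate filament protein desmin of muscle cells and pericytes, had 4.87 and 5.28 CPM in vanoxerine, against 9.15 and 10.9 CPM in saline. It was lower in both vanoxerine libraries, by 1.98-fold (log2 fold change -0.98 ± 0.15 SE, edgeR adjusted p = 0.00423). Its protein-coding transcript Des-201 held 87.4% and 95.6% of its reads in vanoxerine and 89.5% and 88.6% in saline, and the log2 fold change of protein-coding reads alone was -1.0 (edgeR adjusted p = 0.0107). Des is also made by skeletal muscle. The 12 skeletal muscle markers summed to 46.7 and 46.0 CPM in vanoxerine and 64.3 and 62.2 CPM in saline. Of the 10 tested 1 rose and 3 fell, against 21.0% higher and 15.9% lower over all genes tested. The skeletal actin gene Acta1 fell, with 13.6 and 11.8 CPM in vanoxerine and 24.0 and 21.2 CPM in saline (log2 fold change -0.83 ± 0.11 SE, edgeR adjusted p = 0.00278), as did the myosin light chain gene Mylpf with -0.77 ± 0.18 (SE, edgeR adjusted p = 0.0182). The myosin heavy chain gene Myh1 was the third to fall, with -1.68 ± 0.51 (SE, named after its values were seen), and Myh4 rose, with 0.88 ± 0.24 (SE, edgeR adjusted p = 0.0341). Without vanoxerine replicate 1 or 2 the adjusted p of Mylpf was 0.160 or 0.0597 and that of Myh4 was 0.284 or 0.108. On the log2(TPM + 1) scale the limma adjusted p of Acta1 was 0.0555. On that scale and on the log2(TPM + 0.1) scale, 0 of the 10 tested skeletal muscle markers were called. With the average transcript length offset 1 of them was called, lower in vanoxerine. The part of skeletal muscle RNA in the Des difference was not tested.

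Acta2 (chromosome 19, 34241090 to 34255590, reverse strand), the smooth muscle α-actin gene whose promoter is shown above, had 3.92 and 3.75 CPM in vanoxerine, against 5.52 and 5.94 CPM in saline. The groups did not overlap, and it was 1.49-fold lower, a log2 fold change of -0.58 ± 0.16 (SE, edgeR adjusted p = 0.0357). This was the smallest change and the largest p among the 5 genes called lower. The call was lost without vanoxerine replicate 1 (log2 fold change -0.60, edgeR adjusted p = 0.198) and without vanoxerine replicate 2 (-0.54, edgeR adjusted p = 0.243), where the remaining library is assumed to vary like the saline libraries. Its value over the 17 alternatives stayed negative. In saline replicate 1 the short transcript Acta2-202 was assigned 33.5% of the gene's TPM, and in the other 3 libraries it was assigned 0%.

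The close copies of Acta2 were lower too. Actg2 had 0.679 and 0.577 CPM in vanoxerine, against 1.84 and 1.59 CPM in saline, a log2 fold change of -1.45 ± 0.34 (SE), and it was called. Actc1, the cardiac actin gene, had 8 reads over the 4 libraries. Actb and Actg1, the cytoplasmic actin genes of all cells, rose, with log2 fold changes of 0.68 ± 0.03 and 0.63 ± 0.03 (SE), and Actb averaged 5663 ± 53.2 CPM in vanoxerine and 3526 ± 69.6 CPM in saline (SD, n = 2 each).

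Tagln (chromosome 9, 45929619 to 45936058, reverse strand), the gene of the actin-binding protein SM22α of smooth muscle, had 1.01 and 1.78 CPM in vanoxerine, against 0.720 and 1.91 CPM in saline. The groups overlapped, and the log2 fold change of 0.09 ± 0.55 (SE) was not called (edgeR adjusted p = 0.924). Its sign was not fixed by these libraries, with -0.46 without saline replicate 1, 0.96 without saline replicate 2, 0.45 without vanoxerine replicate 1 and -0.37 without vanoxerine replicate 2. The antisense gene Gm48529 overlaps Tagln by 3627 bases, and 53.8% of the runs of 31 bases along Tagln-201 also occur in another gene's transcripts. Gm48529 was assigned 207 and 191 reads in vanoxerine and 159 and 94 in saline, against 70 and 117 Tagln reads in vanoxerine and 55 and 136 in saline. The library kit, TruSeq RNA v2, does not mark strand, so reads from the shared stretch cannot be told apart and the level of Tagln is uncertain.

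Myh11 (chromosome 16, 14194535 to 14291372, reverse strand), the myosin heavy chain gene that defines mature smooth muscle, was at the edge of detection. It was assigned 4 and 10 reads in vanoxerine and 8 and 25 in saline, 47 in all. The groups overlapped and the log2 fold change of -1.11 ± 1.04 (SE) was not called (edgeR adjusted p = 0.459). Reads of other smooth muscle contractile genes over the 4 libraries varied widely. Cnn1, the calponin gene, had 51 and Lmod1, the leiomodin gene, had 17. Myl9 had 338, Actg2 had 339 and Smtn had 14300. Counts this low limit the test of Myh11 to large differences.

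The 2 pericyte genes gave the largest and one of the smallest differences among the 10. Rgs5 (chromosome 1, 169655501 to 169695813, forward strand) encodes a regulator of G protein signalling that marks pericytes, and it had 1.23 and 0.850 CPM in vanoxerine, against 3.73 and 3.23 CPM in saline. These levels came from 85 and 56 reads in vanoxerine and 285 and 230 in saline, all assigned to Rgs5-201. The groups were far apart relative to their spread, and Rgs5 was 3.34-fold lower, a log2 fold change of -1.74 ± 0.29 (SE, edgeR adjusted p = 0.00588). Only 2.85% of the genes tested had a lower log2 fold change. Rgs5 kept its call in all 17 alternatives run, with log2 fold changes from -2.02 without vanoxerine replicate 1 to -1.49 without vanoxerine replicate 2 when 1 library was left out.

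Cspg4 (chromosome 9, 56865033 to 56899870, forward strand) encodes the NG2 proteoglycan of pericytes and glial precursors, and by its gene total it had 1.3 and 1.06 CPM in vanoxerine, against 0.969 and 1.56 CPM in saline. The groups overlapped and the log2 fold change was -0.10 ± 0.38 (SE, edgeR adjusted p = 0.873). The transcripts behind that total differed. Its only protein-coding transcript, Cspg4-201, was assigned 50.2 and 66.8 reads in vanoxerine and 4.40 and 0 reads in saline. The transcripts annotated as retained introns were assigned 39.8 and 3.20 reads in vanoxerine and 69.6 and 111 reads in saline. Protein-coding reads were thus 55.8% and 95.4% of Cspg4 reads in vanoxerine and 5.89% and 0% in saline, and the groups did not overlap. With protein-coding transcripts alone, an alternative chosen after seeing the data, the log2 fold change of Cspg4 was 4.89 (edgeR adjusted p = 0.0313). That value depends on fewer than 5 reads in saline and on how Salmon divided reads between transcripts that share sequence, so its size is not a measured fold.

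**Figure D2:**
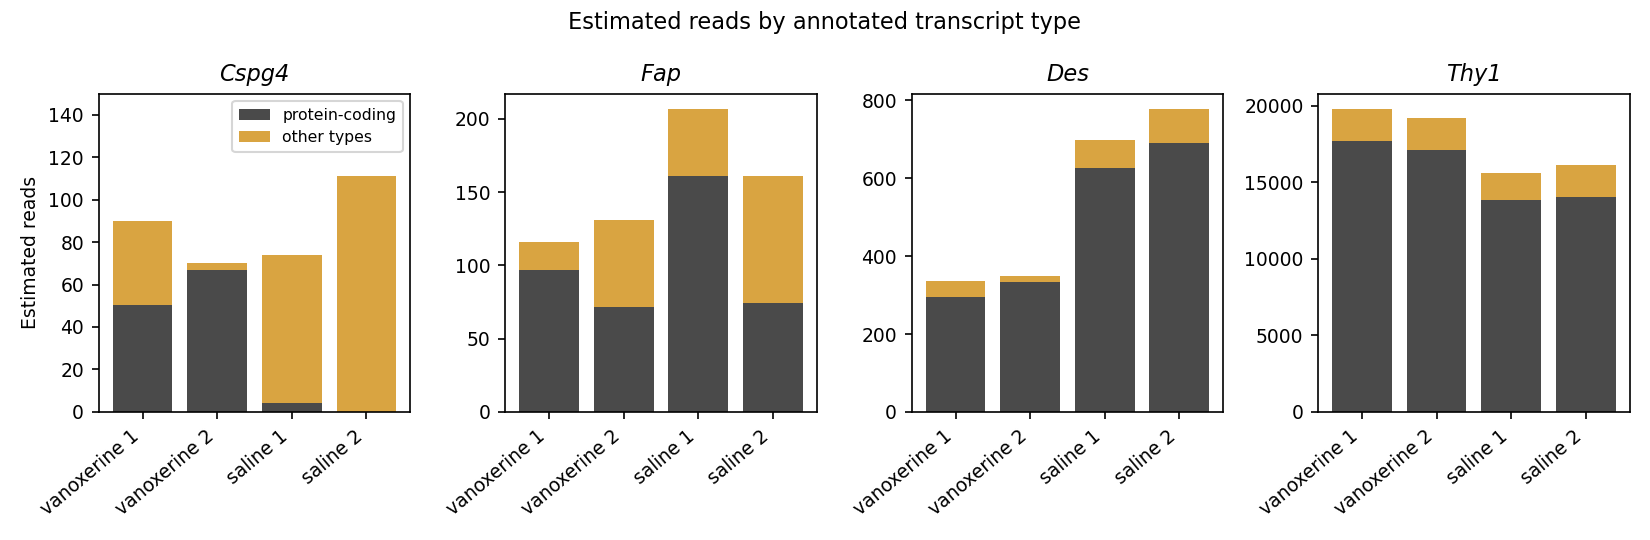
Estimated reads of Cspg4, Fap, Des and Thy1 in each library, vanoxerine libraries left and saline libraries right, with each bar split into protein-coding transcripts (dark) and other annotated types (gold). Protein-coding reads of Cspg4 are 50.2 and 66.8 in vanoxerine and 4.40 and 0 in saline, while for Des and Thy1 the protein-coding part is between 87.3% and 95.6% of every bar.

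On a per-length scale the 10 genes were far apart in level. In TPM, mean ± SD over 2 libraries, Thy1 stood first in both groups. It was followed in vanoxerine by Pdgfra with 2.56 ± 0.540, Des with 2.15 ± 0.235, Pdgfrb with 2.11 ± 0.108, Acta2 with 2.00 ± 0.069 and Fap with 1.21 ± 0.772. From Pdgfra to Acta2 each gene's range overlapped that of the next in this order, while both Fap values lay below both Acta2 values. Tagln had 0.961 ± 0.341, Rgs5 0.274 ± 0.071, Cspg4 0.184 ± 0.090 and Myh11 0.0157 ± 0.010 TPM in vanoxerine. In saline the order was Pdgfra with 3.97 ± 0.942, Des with 3.83 ± 0.444, Pdgfrb with 3.62 ± 0.339, Acta2 with 2.85 ± 0.415, Fap with 1.11 ± 0.252, Rgs5 with 0.769 ± 0.070, Tagln with 0.739 ± 0.459, Cspg4 with 0.262 ± 0.056 and Myh11 with 0.0276 ± 0.020 TPM. Rgs5 thus stood above Tagln in saline by less than the spread of Tagln, and below it in vanoxerine.

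Ratios within a library do not depend on the scaling between libraries, and each gene was therefore also set against Pdgfrb. The log2 ratio of Des to Pdgfrb TPM was 0.08 and -0.04 in vanoxerine and 0.06 and 0.10 in saline, a difference of -0.06, smaller than the spread within vanoxerine. The log2 ratio of Thy1 was 7.41 and 7.54 in vanoxerine and 6.13 and 6.05 in saline, a difference of 1.38. That of Rgs5 was -2.75 and -3.18 in vanoxerine and -2.05 and -2.42 in saline, a difference of -0.73, so Rgs5 was lower relative to Pdgfrb in both vanoxerine libraries. Pdgfrb itself averaged 2.11 TPM in vanoxerine and 3.62 TPM in saline, so a gene of unchanged level gains in this ratio. Acta2 differed by 0.27 and Tagln by 1.27, each without overlap of the groups. These gains are relative to Pdgfrb and are not a rise in level. With 1 library left out the difference was 0.026 (without saline replicate 2) to 0.51 (without saline replicate 1) for Acta2 and 0.68 (without saline replicate 1) to 1.85 (without saline replicate 2) for Tagln. For Thy1, Rgs5, Acta2 and Tagln the two-sided exact permutation p was 0.333, the smallest that 2 against 2 libraries allow, and the adjusted p over the 9 ratios was 0.749.

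**Figure D3:**
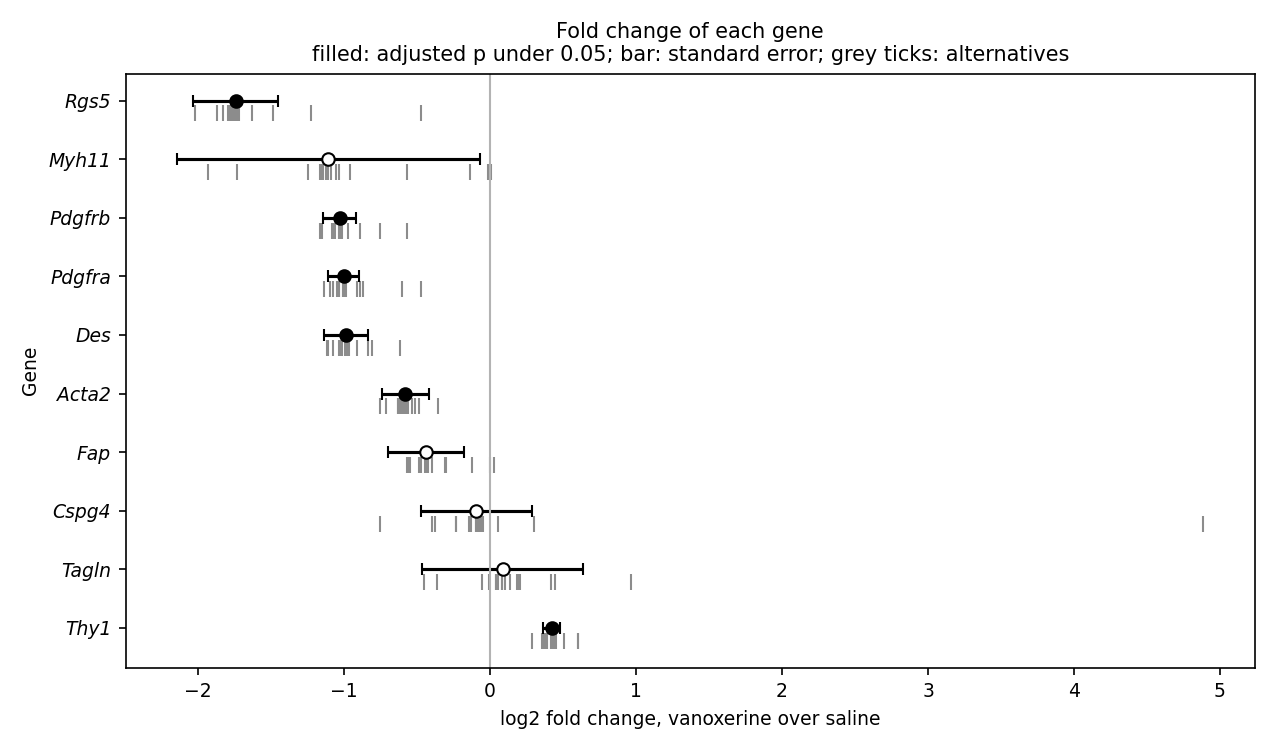
Log2 fold change of vanoxerine over saline for each of the 10 genes, with filled circles for genes called at an edgeR adjusted p under 0.05, bars for ± 1 SE and grey ticks for the values under the alternative settings. The values run from -1.74 for Rgs5 to 0.42 for Thy1, and the ticks of Cspg4, Tagln, Fap and Myh11 lie on both sides of 0.

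Other genes of the same cells were read from lists, by counts and medians beside all genes tested. Of 13 smooth muscle contractile genes 10 were tested, of which 3 fell, 1 rose and 6 were not called, with a median log2 fold change of -0.17. The share called, 4 of 10, was near the 36.9% of all genes tested. The tropomyosin gene Tpm2 fell to 52.8 and 55.0 CPM in vanoxerine, against 76.6 and 88.4 CPM in saline (log2 fold change -0.61 ± 0.08 SE, edgeR adjusted p = 0.00207). The caldesmon gene Cald1 fell by 0.31 ± 0.06 on the log2 scale (SE, edgeR adjusted p = 0.00779). The call of Cald1 was lost on the log2(TPM + 1) scale (limma adjusted p = 0.247) and on the log2(TPM + 0.1) scale (limma adjusted p = 0.244). Actg2, given above, was the third gene to fall. Itga8, the integrin α8 gene, was called higher with 2.74 ± 0.62 (SE, edgeR adjusted p = 0.0178), from 56 and 60 reads in vanoxerine and 13 and 6 in saline. Its sign turned with the average transcript length offset, where it was -0.79, and on the log2(TPM + 1) scale, where it was -0.12. Without vanoxerine replicate 1 or 2 this list had 1 gene called instead of 4, and without saline replicate 2 it had 5 lower and 3 higher.

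The genes of SRF and its coactivators went the other way from Acta2. All 3 that were tested rose, beside 21.0% called higher over all genes tested, and the median log2 fold change was 0.55. Mrtfa had 46.0 and 41.7 CPM in vanoxerine, against 16.3 and 21.8 CPM in saline, a log2 fold change of 1.21 ± 0.14 (SE, edgeR adjusted p = 0.00156). Srf rose by 0.43 ± 0.07 and Mrtfb by 0.55 ± 0.12 on the log2 scale (SE, edgeR adjusted p = 0.00628 and 0.0134). Myocd, the smooth muscle and heart coactivator gene, had 16 reads over the 4 libraries and was not tested. Without vanoxerine replicate 2 only Mrtfa was called, with an adjusted p of 0.0634 for Srf and 0.0750 for Mrtfb, and without vanoxerine replicate 1 that of Mrtfb was 0.0872. Mrtfb was also not called with the average transcript length offset (log2 fold change 0.35, edgeR adjusted p = 0.117), log2(TPM + 1) (limma adjusted p = 0.0884) or log2(TPM + 0.1) (0.0981), nor Srf with protein-coding transcripts only (edgeR adjusted p = 0.05004).

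Of 15 further pericyte genes 11 were tested, of which 3 fell, 1 rose and 7 were not called, with a median log2 fold change of -0.47. The share called, 4 of 11, was near the 36.9% of all genes tested. Mcam, the CD146 gene of pericytes and endothelium, had 12.8 and 12.4 CPM in vanoxerine, against 26.7 and 29.2 CPM in saline (log2 fold change -1.15 ± 0.09 SE, edgeR adjusted p = 0.000281). Foxs1, a forkhead gene of mural cells, fell 4.61-fold, with 0.997 and 0.638 CPM in vanoxerine and 4.33 and 3.21 CPM in saline (log2 fold change -2.20 ± 0.33 SE, edgeR adjusted p = 0.00399). Ndufa4l2, a hypoxia-responsive gene named here after its values were seen, was the third to fall, with -1.25 ± 0.19 (SE). Anpep, an aminopeptidase gene that myeloid cells also express, rose, with 74.9 and 73.9 CPM in vanoxerine and 24.1 and 25.1 CPM in saline (log2 fold change 1.6 ± 0.06 SE, edgeR adjusted p = 2.51e-05). Without saline replicate 1, 5 genes of this list were called lower and 3 higher.

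Of 13 further genes of activated fibroblasts, 5 fell, 2 rose and 6 were not called, with a median log2 fold change of -0.22. Over all genes tested, 15.9% were called lower and 21.0% higher. Postn, the periostin gene, had 6.92 and 6.85 CPM in vanoxerine, against 18.0 and 16.8 CPM in saline (log2 fold change -1.34 ± 0.10 SE, edgeR adjusted p = 0.000291). Pdpn, the podoplanin gene, which some macrophages and tumour cells also express, rose, with 43.7 and 41.4 CPM in vanoxerine and 20.3 and 20.7 CPM in saline (log2 fold change 1.06 ± 0.07 SE, edgeR adjusted p = 0.000167). Inhba, the gene of an activin subunit, rose by 0.64 ± 0.06 on the log2 scale (SE, edgeR adjusted p = 0.000627). The other genes that fell, which were named with their values known, were Ccn2 with -0.96 ± 0.14, Cthrc1 with -2.04 ± 0.42, Lox with -0.88 ± 0.25 and Cxcl12 with -0.77 ± 0.23 (SE). Without vanoxerine replicate 1 or 2, and with the average transcript length offset or log2(TPM + 1), 2 genes of this list were lower and 2 higher. The 5 fibroblast matrix genes Col1a1, Col1a2, Col3a1, Dcn and Lum all fell, with log2 fold changes from -1.09 for Col3a1 to -0.69 for Col1a1. The call of Col3a1 was lost on the log2(TPM + 1) scale (limma adjusted p = 0.0612) and on the log2(TPM + 0.1) scale (limma adjusted p = 0.0588). On the log2(TPM + 0.1) scale 3 of these 5 genes were called. The summed level of the 5 fibroblast matrix genes was 237 and 238 CPM in vanoxerine and 466 and 453 CPM in saline.

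**Figure D4:**
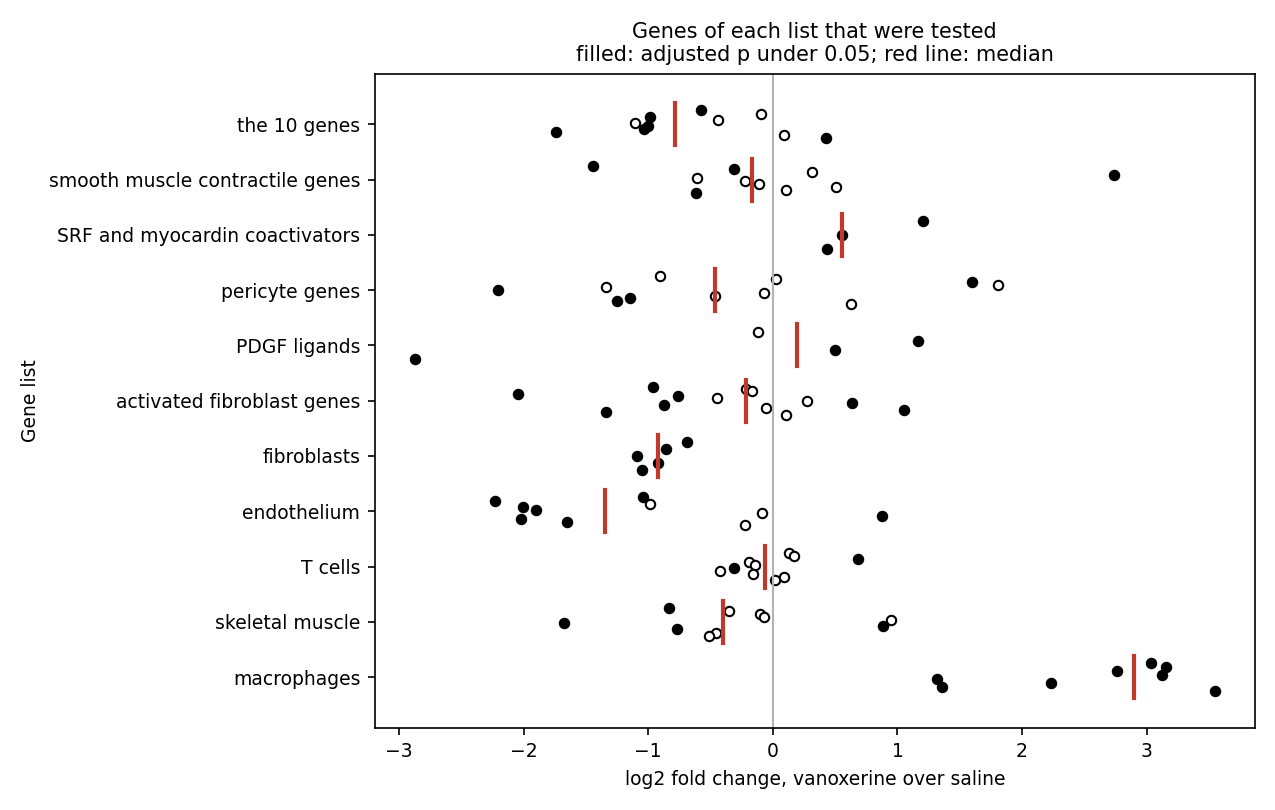
Log2 fold change of vanoxerine over saline for every tested gene of each list, filled where the edgeR adjusted p was under 0.05, with a red line at the median of the list. The median is -0.78 for the 10 genes, -0.93 for fibroblasts and -1.35 for endothelium, and it is 0.55 for SRF and its coactivators and 2.90 for macrophages.

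Markers of other cells differed in direction from list to list. Of all genes tested, 21.0% were called higher and 15.9% lower. The 8 macrophage markers all rose, and their summed level was 3640 and 3666 CPM in vanoxerine and 617 and 648 CPM in saline. Of 10 endothelial markers 6 fell, 1 rose and 3 were not called, with a median log2 fold change of -1.35. Plvap, a gene of fenestrated vessels, had a log2 fold change of -2.02 ± 0.10 and the VE-cadherin gene Cdh5 one of -1.05 ± 0.08, while Pecam1, which macrophages also express, had 0.87 ± 0.05 (SE). The summed level of the endothelial list, which Pecam1 dominates, was 147 and 152 CPM in vanoxerine and 160 and 156 CPM in saline. Of the 10 colon epithelium markers 8 were tested and 3 rose, among them Epcam, with 4.22 and 4.01 CPM in vanoxerine and 1.75 and 2.29 CPM in saline. Without vanoxerine replicate 1 or 2 that list had 1 gene called, and the edgeR adjusted p of Epcam was 0.125 or 0.101. Cdx2, which defines intestinal epithelium, had 0 reads in every library, while Cdh17, Vil1 and Lgals4 were detected in all 4. Mitochondrial reads made up 2.79% and 2.74% of the vanoxerine libraries and 3.49% and 2.59% of the saline libraries. The part of these other cells in the differences of the 10 genes was not tested.

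The authors' deposited table of the comparison gave the same signs for the 10 genes. In the authors' deposited table the log2 fold change was -0.97 for Pdgfrb, -0.76 for Pdgfra, 0.36 for Thy1, -1.51 for Rgs5, -0.98 for Des and -0.62 for Acta2, each with an adjusted p under 0.05. Fap had -0.04 and Cspg4 -0.27 in the authors' deposited table, with adjusted p values of 0.916 and 0.381. Tagln had 0.04 ± 0.37 and Myh11 -0.08 ± 0.43 (SE) there, against 0.09 and -1.11 here. The signs of Fap, Tagln and Myh11 there thus rest on values smaller than their SE.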

How the data were processed

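RNA-seq of 2 vanoxerine and 2 saline libraries was analysed from the authors' Salmon output. Snap-frozen tumours gave the total RNA, and the kit was TruSeq RNA v2, per the labels' protocols. The submitters' processing notes name fastp, Salmon 1.3.0, DESeq2 and GRCm38, without settings. Per the file headers, the deposited estimated count is the number of reads assigned to each of 140992 transcripts, TPM is scaled to transcript length and library total, and the effective length is given beside them. The authors' deposited table gives a base mean (a normalized signal), log2 fold change and p-value per gene. It also has 4 columns of per-library values whose names match no sample, and these were not used.

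Transcripts were assigned to genes with GENCODE M21, which held 139791 of them, and estimated counts were summed per gene and rounded. Between 99.56% and 99.63% of reads fell in these genes. edgeR 4.0.16 (R 4.3.3) used TMM factors, a minimum count of 10 and a minimum total of 15, and the quasi-likelihood test without a block. The SE is the log2 fold change divided by the root of the F statistic. The script was tested on simulated counts. Shared runs of 31 bases and open reading frames were read from the M21 transcripts, and promoters from RefSeq.

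Replicates differed by more than sampling noise, with a mean chi-square per gene of 11.5 in vanoxerine and 36.7 in saline, where sampling noise alone gives about 1. Same-numbered libraries did not deviate together (correlation of deviations over 9871 genes -0.01), so the numbers were not taken to pair the libraries. The 10 genes and the lists were chosen with earlier results of these data known. The rule was to name all 10 genes, the 3 genes of each list with the smallest p, close actin copies, and the 5 genes nearest to Pdgfrb in pattern. It was not kept for every list. Cdh1, Krt19, Cd5, C1qa, C1qb and C1qc were among those it selects that were left out. Genes named outside it, with their values known, are marked in the text only in part. Unmarked ones include Cnn1, Lmod1, Myl9, Smtn, Cdx2, Cdh17, Vil1, Lgals4, Cdh19 and Lep. Alternatives were DESeq2 1.42.0, limma-voom 3.58.1, median-of-ratios, upper-quartile and total-count scaling, dropping the low-count filter or replacing it by a mean of 1 CPM, a threshold of 0.1, a transcript length offset, limma-trend on log2(TPM + 0.1) and on log2(TPM + 1), a replicate block, protein-coding genes alone and leaving out each library. Added after seeing the data were protein-coding transcripts only, ratios from counts, ratios without each library, and the alternatives applied to the lists.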

Additional observations from a re-analysis of the deposited data

How the results depend on the processing

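Pdgfrb, Thy1, Rgs5 and Des kept their direction and their call in all 17 alternatives. The count of calls over all genes was 6916, 4302 with the transcript length offset, and from 3107 to 9708 with 1 library left out (3235 without vanoxerine replicate 1, 3107 without vanoxerine replicate 2). Of 10 genes, 6 were called, and 4 with the length offset or either TPM setting. Upper-quartile scaling moved the median of all genes to -0.14 and the split of calls to 2895 higher and 4525 lower, against 3933 and 2983. The log2(TPM + 1) and log2(TPM + 0.1) scales moved the median to 0.13 and 0.21, and the first gave 4094 higher and 870 lower.

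Pdgfra lost its call with the length offset (-0.87), log2(TPM + 1) (-0.47) and log2(TPM + 0.1) (-0.61, limma adjusted p = 0.178). Acta2 lost its call with no low-count filter (-0.56, edgeR adjusted p = 0.0702), the length offset (-0.75), log2(TPM + 1) (-0.36), log2(TPM + 0.1) (-0.49) and the replicate block (-0.58, edgeR adjusted p = 0.0695), and ranged from -0.63 to -0.51 with 1 library left out. The block changed no other call among the 10 genes, left 6391 calls over all genes and called 5 of the 10.

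Signs turned for 4 of the 10 genes, none of them called, and for the list genes Itga8, which was called higher, and Plin1, which was not called. Tagln was -0.053 with upper-quartile scaling, -0.0079 with protein-coding transcripts only, and -0.46 to 0.96 with 1 library left out. Fap was 0.029 with log2(TPM + 1). Cspg4 was 4.89 with protein-coding transcripts only and -0.40 to 0.30 with 1 library left out, and Myh11 was -1.93 to 0.009 likewise. Itga8 was -0.79 with the length offset, -0.12 with log2(TPM + 1) and -0.091 with log2(TPM + 0.1), and Plin1 ranged from -1.32 to 0.013 with 1 library left out. The log2 ratio to Pdgfrb turned for Des from counts (0.048) and for Myh11 from counts (-0.006). With 1 library left out it ranged from -0.12 to 0.42 for Pdgfra, -0.27 to 0.67 for Cspg4, -0.12 to 0.0025 for Des and -0.76 to 0.78 for Myh11. The causes were not tested.

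Among the lists and their named genes, 91 values lost and 15 gained a call or left 1.5 times the main count, and 761 did neither. Depth limited Myh11, with 47 reads, and the transcript shares of Cspg4, with 345 reads.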

Other observations

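Cells of nerve sheath and fat, which can also carry mural and fibroblast genes, left few reads. Of the Schwann cell markers Cdh19 had 0 reads in every library and Sox10 had 11 and 10 reads in vanoxerine and 0 and 0 in saline. Of the adipocyte markers Lep had 0 reads in every library. Cfd, the adipsin gene, had 0 and 0 reads in vanoxerine and 19 and 40 in saline. The call of Sox10 was lost in 8 of the alternatives that tested it.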
